A study of Caenorhabditis elegans with 2 samples.

Results

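Divergent promoter regions are stretches of DNA that lie between the starts of 2 genes transcribed away from each other, and 219 PROS-1 ChIP-seq regions with a signal value of 15 or more lay in them on the autosomes of *Caenorhabditis elegans*. They were taken from 24460 autosomal candidates in the list that the authors called on both replicates pooled (30000 candidates with the X). A region was kept where its summit lay outside every protein-coding gene body and within 1000 bp upstream of annotated starts of 2 protein-coding genes on opposite strands. Signal value and position chose the regions, so both are given as description without a test. The signal value is the authors' score of a region relative to a control, on a scale that the deposited files do not state. In all, 2117 autosomal candidates (8.65%) reached 15, and the 219 divergent regions made up 10.3% of them.

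The chromatin came from whole late embryos of strain OP500, of genotype unc-119(tm4063) III; wgIs500, in which the integrated transgene wgIs500 adds an eGFP-tagged pros-1. There was 1 group of 2 biological replicates of pooled males and females, numbered as in the labels, and no other condition. Every cell type of the embryo was mixed, and the strain carries the transgene beside its own pros-1 gene. Depth is unknown, since the lists give positions and scores without totals of reads.

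PROS-1 belongs to the Prospero family of homeodomain proteins and is known in worms for roles in glial cells and in the excretory canal. A divergent promoter lets a single short interval serve a pair of genes, and in compact genomes such intervals often sit between housekeeping genes. Many worm transcripts receive a spliced leader, so that an annotated start can lie downstream of the place where transcription begins.

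The sequences below show the summit base and 50 bp on either side for the regions that the results return to, on the plus strand of WBcel235, the assembly that ce11 denotes, as read from the RefSeq copy of the genome. Capitals mark GAGAGAG (the GAGA repeat), GGGCGG (the GC-box), AAGACG or AAGGCG (the Prospero half-site) and the 8-base words GCGAGACC and GAGACGCA, each on either strand. The first 5 are among the 6 strongest regions, shown to let the summits be compared with each other.
K01G5.10 and tasp-1, chrIII:10759202-10759302: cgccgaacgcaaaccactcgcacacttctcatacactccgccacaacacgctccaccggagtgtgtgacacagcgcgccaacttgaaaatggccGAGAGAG
K06H7.7 and grp-1, chrIII:8085503-8085603: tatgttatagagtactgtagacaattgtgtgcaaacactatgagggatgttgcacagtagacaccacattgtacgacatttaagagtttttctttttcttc
iff-2 and F54C9.14, chrII:8561393-8561493: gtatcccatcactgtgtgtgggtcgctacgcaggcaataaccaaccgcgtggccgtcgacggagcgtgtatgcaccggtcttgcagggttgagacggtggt
Y77E11A.7 and jtr-1, chrIV:1420274-1420374: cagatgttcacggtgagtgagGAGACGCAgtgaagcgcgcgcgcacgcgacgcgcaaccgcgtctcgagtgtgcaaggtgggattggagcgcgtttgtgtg
let-70 and klc-1, chrIV:11082974-11083074: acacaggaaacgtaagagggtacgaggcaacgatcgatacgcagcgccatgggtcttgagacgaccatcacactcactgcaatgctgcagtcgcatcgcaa
The next pair holds the strongest region with a half-site and the strongest with a GC-box among the chromosomes used for this purpose.
rpl-15 and K11H12.8, chrIV:654878-654978: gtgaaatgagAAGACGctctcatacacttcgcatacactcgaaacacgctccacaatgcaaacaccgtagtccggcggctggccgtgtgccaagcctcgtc
drr-2 and set-16, chrIII:13643695-13643795: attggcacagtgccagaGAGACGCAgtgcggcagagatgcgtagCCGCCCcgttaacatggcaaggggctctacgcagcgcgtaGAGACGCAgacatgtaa
The last 3 are the strongest among them that hold GCGAGACC, a word chosen after values were seen.
rpl-39 and rps-30, chrV:7776279-7776379: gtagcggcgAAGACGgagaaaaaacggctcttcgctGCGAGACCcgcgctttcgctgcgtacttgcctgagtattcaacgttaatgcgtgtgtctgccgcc
T27E9.2 and ant-1.1, chrIII:13463068-13463168: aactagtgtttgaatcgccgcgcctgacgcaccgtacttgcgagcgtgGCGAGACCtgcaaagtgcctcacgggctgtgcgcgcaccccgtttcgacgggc
npp-3 and top-2, chrII:11874839-11874939: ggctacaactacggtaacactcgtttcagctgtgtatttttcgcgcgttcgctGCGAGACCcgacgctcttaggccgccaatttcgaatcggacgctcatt

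Divergent intervals were a small part of the genome with a high density of regions. Positions that meet the rule covered 1.21 Mb, 1.47% of the autosomes, and held 180.3 regions per Mb at a signal value of 15 or more. Promoters of a single gene held 49.5 per Mb. Gene-body sequence within 1000 bp upstream of a protein-coding start, of the same or another gene, held 28.96, and other gene-body sequence 14.9. Distal intergenic sequence held 27.9. It lies outside protein-coding gene bodies and not within 1000 bp upstream of a protein-coding start. Of all 701 candidates in divergent positions 31.2% reached 15, against 15.1% in single-gene promoters and 11.1% in distal intergenic sequence. The median signal value of the members, 22.5 with a range of 15.1 to 117.4, was close to the 22.4 of single-gene promoters and above the 19.4 of distal intergenic regions. On the X, 12 of 44 divergent candidates reached 15, a density of 140.0 per Mb.

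The authors' list thresholded by the irreproducible discovery rate (IDR), which holds their 737 strongest pooled regions, contained 83 of the 219 divergent regions (37.9%). The share was 26.1% over all autosomal candidates of 15 or more, 35.1% in single-gene promoters and 26.2% in distal intergenic sequence. Because the IDR list was cut from the same pooled scores that chose the members, this share restates their strength.

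The 219 regions lay between 218 gene pairs, and they touched few of the pairs available. The annotation holds 2422 autosomal pairs with this geometry, so 9.001% of them carried a region. The interval of ecps-1, an ECM29-type proteasome adaptor gene, and atx-2, the ataxin-2 homolog, on chromosome III was the single one with more than 1 region, at signal values of 30.2 and 17.2. By chromosome, 13.5% of the pairs on III and 12.4% on I had a region, against 8.52% on IV, 7.05% on II and 5.83% on V. Chromosomes I and III had 54 members each, IV and V 39 each and II 33. In 206 members exactly 2 genes were in reach, in 12 there were 3 and in 1, beside Y62E10A.20 and Y62E10A.23, there were 4.

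The strongest member lay between K01G5.10 and tasp-1, the taspase homolog, 55 bp from the tasp-1 start and 730 bp from the other. Its signal value was 117.4 pooled, 21.5 in replicate 1 (rank 34 of that list) and 97.9 in replicate 2 (rank 4). Replicate values are on scales of their own and are not averaged. The region stood near the top of both lists.

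The next lay between K06H7.7 and grp-1, which encodes a guanine nucleotide exchange factor of the cytohesin type. Its signal value was 102.7 pooled, 36.02 in replicate 1, where it was the strongest region of all, and 65.7 in replicate 2, where it ranked 28. It is also the member nearest to pros-1 itself, with the summit 18264 bp from the pros-1 start, and it was the single member within 50 kb of it. The labels do not give the stretch of genome that the transgene carries, and its part in this value was not tested.

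The region between his-67 and his-68, both core histone genes, had a signal value of 84.4 pooled, 25.8 in replicate 1 and 62.3 in replicate 2. That beside iff-2, an eIF5A gene, had 81.4 pooled, 26.5 in replicate 1 and 58.2 in replicate 2. Between let-70, a ubiquitin-conjugating enzyme gene, and klc-1, a kinesin light chain gene, the values were 73.2 pooled, 18.4 in replicate 1 and 59.9 in replicate 2. All 3 ranked within the strongest 100 of each replicate.

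Others were strong mainly in replicate 2. The region between Y77E11A.7 and jtr-1 had 75.1 pooled, with 10.7 in replicate 1 (rank 390) and 64.6 in replicate 2 (rank 30). Between ztf-9, a zinc finger gene, and ZK287.7 the values were 53.8 pooled, 4.66 in replicate 1 (rank 6586) and 47.7 in replicate 2 (rank 94). Between imp-2, an intramembrane peptidase gene, and enpl-1, the endoplasmin gene, they were 48.0 pooled, 4.92 in replicate 1 (rank 5585) and 40.8 in replicate 2 (rank 149). All 3 stood far higher in the replicate 2 list than in that of replicate 1. Beside cye-1, the cyclin E gene, and pqn-21 the ranks were 3061 in replicate 1 and 137 in replicate 2, at a pooled signal value of 47.96.

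Between nhl-2, a TRIM-NHL gene of the microRNA pathway, and tag-340 the pooled signal value was 69.9. Ribosomal protein genes flanked 4 of the strongest 20, and 29 of all 219: rpl-15 with K11H12.8 (66.5), rpl-20 with Y17G9B.5 (59.0), rps-1 with ifet-1, the eIF4E transporter gene (50.8), and rps-12 with ska-3, a kinetochore gene (47.8). The drr-2 and set-16 region, between an eIF4H-type gene and an MLL-type histone methyltransferase gene, had 53.8, and that of pqn-59 and taf-4, a TFIID subunit gene, 55.5. The sec-61.B and trap-3 region, between genes of the protein translocon of the endoplasmic reticulum, had 50.96. The remaining 3 were pde-6, a phosphodiesterase gene, with Y95B8A.6 (50.6), the core histone genes his-61 and his-62 (50.4), and a pair of genes of clone Y105C5A that have sequence names (49.9).

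At the threshold the values ran on without a step. Just inside lay clsp-1 with eef-2 (15.1), rpt-2 with aps-1 (15.09) and sre-6 with ocr-1 (15.09), and just outside vps-25 with uba-2 (14.998) and snx-13 with snr-1 (14.9).

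**Figure D1:**
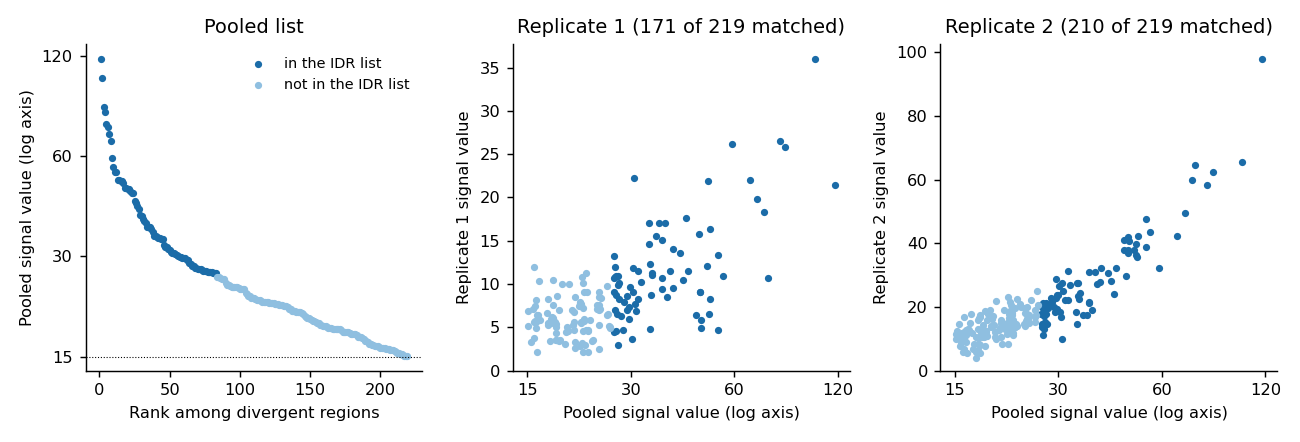
Signal values of the 219 divergent regions: pooled values by rank on a log axis with the threshold of 15 dotted (left), and the value of the matched summit in replicate 1 (middle) and replicate 2 (right) against the pooled value on a log axis. Dark points are in the IDR list (83) and light points are not. Pooled values run from 15.1 to 117.4, with 0.838 for replicate 2 and 0.573 for replicate 1 as Spearman's rho with the pooled value.

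Most divergent regions had a summit within 100 bp in the candidate lists of both replicates. A match was found in replicate 1 for 171 of 219 (78.1%), in replicate 2 for 210 (95.9%) and in both for 163 (74.4%, exact 95% interval 68.1% to 80.1%). Matches in both were found for 68.8% of single-gene promoter regions, 59.7% of distal intergenic regions and 15.8% of weaker candidates in divergent positions. These intervals cover the counting of regions only. The replicates made the pooled list, so the matches are not independent of the choice of members.

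Replicate 2 alone matched 47 members and replicate 1 alone 8. A single member, between the chemoreceptor gene sre-6 and the channel gene ocr-1, had no match in either, and it was also the weakest of the 219. Among the strongest 737 candidates of each replicate, the members had 62 in replicate 1 and 63 in replicate 2. Matched members had a median signal value of 7.31 in replicate 1 (range 2.11 to 36.02) and 16.99 in replicate 2 (4.06 to 97.9). Across regions that share their reads with the pooled list, Spearman's rho of the replicate value with the pooled value was 0.573 over 171 members in replicate 1 and 0.838 over 210 in replicate 2, given as description. By rank, 77 of the 163 members in both lists stood higher in replicate 1. When the members were ordered by pooled signal and cut into 4 groups of 54 or 55, the share matched in both replicates was 92.7% in the strongest group, then 83.6%, 65.5% and 55.6%.

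Regions were most frequent, per pair, in intervals of moderate length. The median gap between the opposed starts was 558 bp (range 11 to 1871), against a median of 698 bp in pairs without a region. Among pairs 250 to 500 bp apart 80 of 515 (15.5%) had a region, and among those 500 to 750 bp apart 53 of 450 (11.8%). Shorter and longer gaps had fewer, with 18 of 357 (5.04%) below 250 bp, 32 of 344 (9.30%) from 750 to 1000 bp, 27 of 474 (5.70%) from 1000 to 1500 bp and 8 of 282 (2.84%) above. The sequence that meets the rule differs with the gap, so the number per length is needed as well. Per 100 kb of such sequence it was 42.8 for gaps of 250 to 500 bp, 31.1 below 250 bp, 19.3 from 500 to 750 bp and between 7.95 and 11.6 above.

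The shortest interval, 11 bp between F32D8.14 and F32D8.5, had a region of signal value 30.4 (9.09 in replicate 1 and 18.6 in replicate 2). Next were K07B1.7 with the trypsin-like protease gene try-5 at 81 bp (15.7) and T26A8.4 with pdtf-1 at 144 bp (43.4). The longest were ZC395.11 with T15B12.1 at 1871 bp (15.99), anmt-2 with nfm-1, the merlin homolog, at 1694 bp (27.0), and mif-4 with ipla-6 at 1658 bp (34.0). Gap and strength did not order together at these ends.

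Summits lay between opposed starts by rule, so the gap limits their distance to the nearer start. Even placement along the gaps was not computed for comparison. The median distance to the nearer start was 158 bp. It was 100 bp or less in 61 members, 100 to 200 bp in 83 (37.9%), 200 to 300 bp in 40, 300 to 400 bp in 16 and more in 19. Among the 482 weaker candidates in divergent positions 27.6% lay 100 to 200 bp away and 34.9% within 100 bp, against 27.9% of members within 100 bp. With each gap cut into 3 equal stretches, the middle stretch held 105 of 219 summits (47.9%, exact 95% interval 41.2% to 54.8%) and 37.8% of weaker candidates (33.4% to 42.3%). The nearer start was on the plus strand in 110 of 219, so neither direction was preferred beyond the counting interval of 43.4% to 57.0%. Both starts were within 250 bp of the summit in 60 members (27.4%, against 20.95% of weaker candidates) and within 500 bp in 143 (65.3%, against 53.3%).

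**Figure D2:**
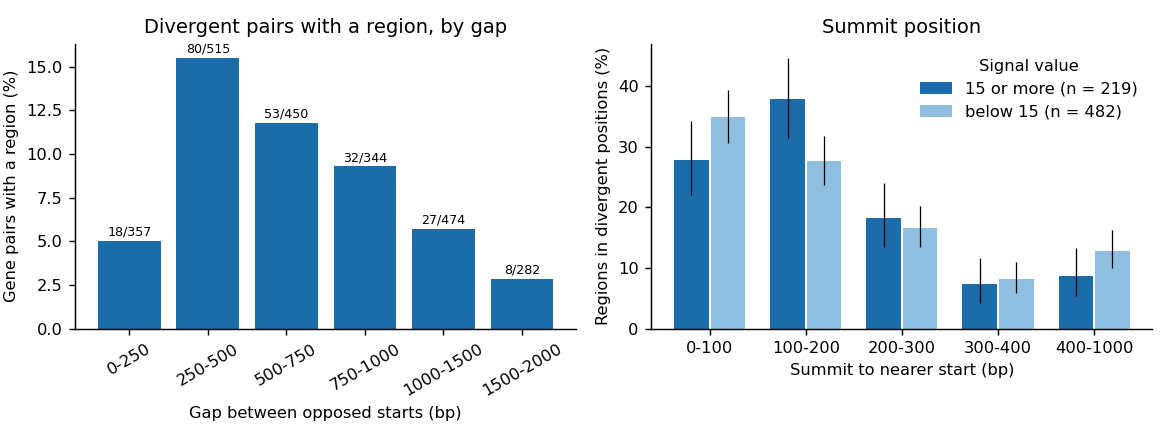
Left, the share of autosomal divergent gene pairs that have a region, by the gap between opposed starts in bp, with counts above the bars. Right, the share of summits by distance to the nearer start in bp for the 219 regions of 15 or more (dark) and the 482 candidates below 15 (light), with exact 95% intervals of counting. Pairs 250 to 500 bp apart have the highest share, 15.5%, and 37.9% of the 219 summits lie 100 to 200 bp from a start.

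The pairs included 436 genes of the 4755 with this geometry (9.17%), of which 108 have only a sequence-style name. Genes were grouped by name prefix into 23 lists, and 100 members had at least 1 listed gene. Genes of a pair share a region, so the counts of genes are not independent of each other. Genes on no list had a region in 317 of 3977 cases (7.97%), close to the share over all genes.

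Cytosolic ribosomal protein genes, which encode the subunits of the ribosome, had the highest share, 31 of 49 with this geometry (63.3%), at 29 members. The median signal value of these genes' regions was 24.3, against 22.5 over all genes with a region. After rpl-15 and rpl-20 the strongest were those of rps-1, rps-12, rpl-12 (47.7, opposite lin-54, a DREAM complex gene), rpl-22 (47.2) and rps-19 (46.5). Both sides were ribosomal protein genes at rpl-39 with rps-30 (38.3; 8.47 in replicate 1 and 31.2 in replicate 2) and at rps-10 with rpl-24.1 (24.3; 2.55 in replicate 1 and 16.3 in replicate 2). Of the 18 ribosomal protein genes without a region, 11 had a weaker candidate in the interval, up to 14.9 at rpl-41.1 and 13.9 at rps-23, and 7 had none. Of the 29 members 13 (44.8%) were in the IDR list, against 36.8% of the other 190.

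Mitochondrial ribosomal protein genes had 4 of 26 (15.4%), at mrps-7 (29.3), mrpl-37 (28.7), mrps-17 (17.5) and mrpl-9 (16.4). Translation factor genes had 6 of 23 (26.1%): iff-2, eef-1A.1, the elongation factor 1 alpha gene (44.1), eif-3.E (27.7) and eef-1G (27.2) were the strongest. Of 14 aminoacyl-tRNA synthetase genes, whose enzymes charge tRNAs, 0 had a region, which allows a share of up to 23.2% by the exact 95% interval. In the list of ribosome biogenesis and the exosome 5 of 14 did (35.7%), led by fib-1, the fibrillarin gene (26.9), nol-10 (21.5), tsr-2 (20.4) and nog-1 (19.1). The other member of that list, nop-1 (16.2), shares the prefix but is known for cortical contractility in the zygote.

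Chromatin modifier and remodeller genes had 9 of 20 (45.0%). The strongest were set-16 (53.8), epc-1, the enhancer of Polycomb homolog (36.2), swsn-4, the ATPase of the SWI/SNF complex (34.3), and trr-1, the TRRAP homolog (22.1). Core histone genes had 13 of 63 (20.6%), at 7 members. Both genes were core histones at 6 of these: his-67 with his-68, his-61 with his-62, his-60 with his-59 (32.03), his-31 with his-32 (27.1), his-4 with his-3 (22.2) and his-35 with his-41 (16.2). The remaining one paired his-72, which encodes the H3.3 variant, with the proteasome gene rpt-6 (31.0). Histone clusters hold near-identical copies, so reads of these regions may not place uniquely, and how the authors treated them is not given in the sources used here.

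Proteasome genes had 7 of 22 (31.8%), led by rpt-6, rpn-3 (25.01, opposite hsp-110), pbs-7 (22.8) and rpn-9 (22.4). Splicing factor genes had 8 of 29 (27.6%), led by prp-8, the core of the spliceosome (42.6), prp-19 (37.7) and the pair snr-3 and rsp-5 (20.9). DNA replication and cell cycle genes had 6 of 28 (21.4%), at cye-1, rfc-4 (44.1), pola-1 (33.8) and cdc-14 (26.05) among others. Membrane trafficking genes had 10 of 42 (23.8%), led by sec-61.B, the ESCRT gene vps-32.1 (39.8), rab-11.1 (32.4) and vps-51 (27.0). The oxidative phosphorylation list had 5 of 23 (21.7%), at nduf-2.2 (46.4), atp-1 (32.01), nuo-1 (19.8), cox-14 (18.9) and ucr-1 (18.5). It leaves out genes of the prefixes ndua and ndub, some of which flank members. Chaperone genes had 5 of 32 (15.6%), led by cct-7 of the cytosolic chaperonin (41.7), hsp-60 of mitochondria (29.2) and hsp-110 (25.01). In 2 small lists 1 gene each had a region, rpb-3 of 7 RNA polymerase genes (17.8) and tin-9.2 of 4 mitochondrial import genes (18.3).

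Gene families of restricted expression had few. Of 278 seven-transmembrane chemoreceptor genes 5 (1.80%) had a region, each shared with a gene that is on no list: sri-5 with rsr-1 (34.5), srh-89 with F25E5.1 (28.01), srm-3 with amph-1 (21.8), str-12 with fbxa-153 (21.3) and sre-6 with ocr-1. Of 34 collagen genes 1 did (2.94%), col-38 opposite rpl-5 (27.7). No region was found at 43 nuclear hormone receptor genes, 9 cilium genes or 8 ceh homeobox genes, and no linker histone gene has this geometry. A count of 0 allows a share of up to 8.22% for 43 genes by the exact 95% interval, 33.6% for 9 and 36.9% for 8.

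For genes of the cells in which PROS-1 is known the lists were small. Of 4 glial genes with this geometry none had a region: kcc-3, a potassium-chloride cotransporter gene, had a weaker candidate of 14.2, grl-2 one of 8.70 and dyf-4 one of 7.74, while ptr-10 had none. Of 8 excretory canal genes 2 did, vha-8 (25.9) and vha-1 (17.5), which encode subunits of the vacuolar proton pump that many tissues use. Lists of this size leave wide intervals, with an upper bound of 60.2% for 0 of 4.

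In 19 members both genes stood on a list. Besides the histone and ribosomal protein pairs above, these were eef-1A.1 with rfc-4, rab-11.1 with rpl-7, his-72 with rpt-6, col-38 with rpl-5, hsp-110 with rpn-3, rpl-7A with set-21 (21.9), snr-3 with rsp-5, set-26 with tsr-2, rpl-36.A with nuo-1, pas-4 with rpb-3 and rpt-2 with aps-1. The genes of 9 of these pairs were on the same list and those of 10 on different lists. Of the 19, rab-11.1 with rpl-7, hsp-110 with rpn-3, snr-3 with rsp-5 and his-35 with his-41 had no match in replicate 1.

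**Figure D3:**
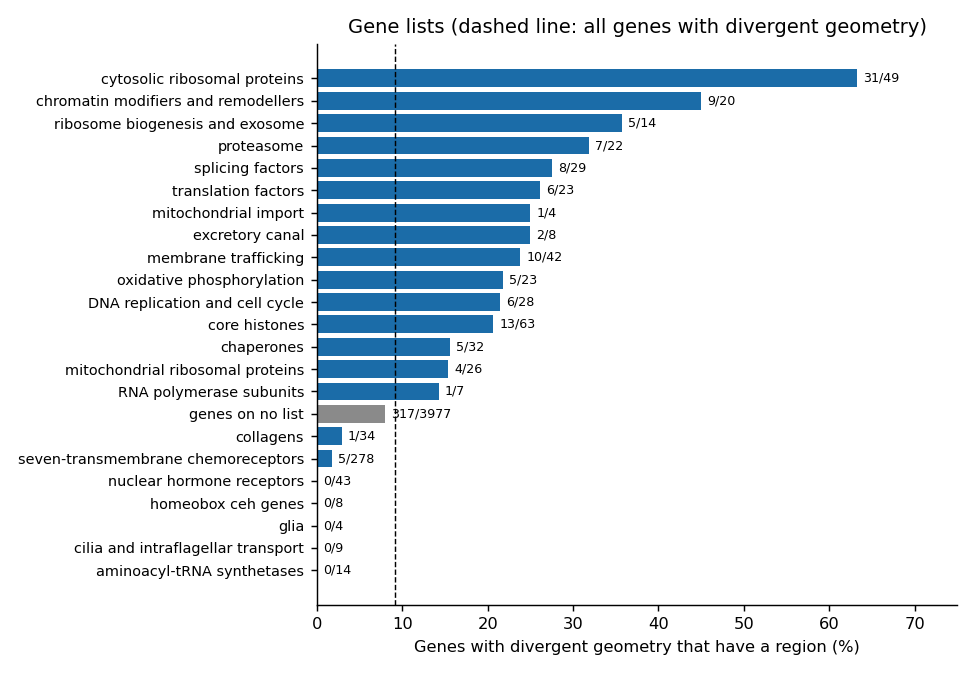
Share of the genes with divergent geometry that have a region, by gene list, with counts at the bar ends; the dashed line is the share over all such genes, 9.17%. Cytosolic ribosomal protein genes stand at 31 of 49 and chromatin genes at 9 of 20, while the chemoreceptor list stands at 5 of 278.

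An annotated non-coding gene lay within 200 bp of the summit in 43 members (19.6%, exact 95% interval 14.6% to 25.5%). The share was 23.98% in single-gene promoters, 31.1% in distal intergenic regions and 10.2% at weaker candidates in divergent positions. Of these genes 37 are annotated as ncRNA, 3 as snoRNA, 2 as piRNA and 1 as miRNA. The snoRNA genes lay beside the let-70 and klc-1 region (123 bp from the summit), attf-2 with F09G2.2 (69 bp) and tmem-107 with rps-26 (129 bp). The miRNA gene mir-5549 overlapped the summit between eef-1A.1 and rfc-4.

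Summits were rich in G and C over a short distance. In the summit base and 50 bp on either side the members had a median GC content of 48.5% (mean 48.1% ± 7.76, SD over 219 regions), against 49.5% in single-gene promoter regions, 47.5% in distal regions, 40.6% at weaker candidates and 32.7% at the midpoints of divergent pairs without a region. In windows of 51 bp the mean was 50.6% at the summit, 43.1% at 50 bp to the left and 44.2% at 50 bp to the right, and 32.7% at 150 bp on either side. The rise was thus narrower than the 324 bp that most candidate regions span. GC content moved with signal: its mean was 52.6% in the strongest group of 55 members, 48.4% and 46.7% in the next groups and 44.6% in the weakest. The strong K06H7.7 and grp-1 summit, at 35.6%, was an exception. Whether base composition has a part in the signal was not tested.

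**Figure D4:**
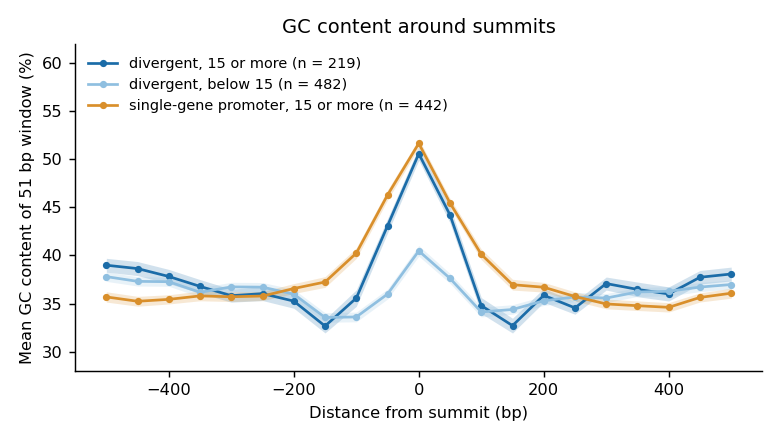
Mean GC content in windows of 51 bp against distance from the summit in bp, for the 219 divergent regions, the 482 candidates below 15 in divergent positions and the 442 single-gene promoter regions; bands are ± 1 SE over regions. The divergent regions reach 50.6% at the summit and 32.7% at 150 bp on both sides.

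None of the 12 searched motifs lay in more than 16.4% of the divergent regions, the share of CCAAT, which stood at 17.7% of midpoints. GAGAGAG lay within 50 bp of the summit in 22 members (10.05%, exact 95% interval 6.40% to 14.8%), against 17.2% of single-gene promoter regions (13.8% to 21.04%), 20.9% of distal regions and 1.497% of midpoints of divergent pairs without a region. GGGCGG lay in 12 members (5.48%), against 8.82%, 6.28% and 2.68% in those same 3 sets. The half-site AAGACG or AAGGCG lay in 32 members (14.6%, 10.2% to 19.997%), against 13.1%, 10.4% and 6.03%. Among weaker candidates in divergent positions GAGAGAG lay in 4.36%, the half-site in 8.51% and GGGCGG in 6.43%, a share above that of the members. In all, 160 members (73.1%) held none of these 3, 52 held 1 and 7 held 2. A match is a run of letters and not a shown binding site.

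The half-site lay in 6 of the 55 strongest (10.9%) and in 11 of the 54 weakest (20.4%). Beside ribosomal protein genes it lay in 10 of 29 (34.5%, exact 95% interval 17.9% to 54.3%), as in the sequences of rpl-15 and rpl-39 above, against 22 of the other 190 (11.6%, 7.40% to 17.005%). At the midpoints of ribosomal protein pairs without a region it lay in 2 of 17. GAGAGAG lay in 0 of the 29, which allows up to 11.9%, and in 11.6% of the others. Median GC content was 49.5% in the 29 and 48.5% in the others.

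The motif TGTTTGC, known for the pharyngeal forkhead factor PHA-4, lay in 23 members (10.5%, 6.77% to 15.3%). It lay in 7.01% of single-gene promoter regions, 2.03% of distal regions, 6.22% of weaker candidates in divergent positions and 3.95% of midpoints. It was present at K06H7.7 with grp-1, where it reads on the minus strand, and at rpl-15 with K11H12.8, sec-61.B with trap-3, the pair of clone Y105C5A and imp-2 with enpl-1. Of the remaining motifs, the E-box CACGTG lay in 6 members, the RFX half-site GTTGCC in 8, the forkhead motif (TGTTTAC or TATTTAC) in 2, the GATA motif (CTGATAAG or TTGATAAG) in 1 and the CRE motif TGACGTCA in 0. Motifs made of A and T were scarce, as they were in other regions of 15 or more. TATAAA lay in 6 members (2.74%), against 9.96% of weaker candidates and 14.6% of midpoints, and the homeodomain motif TAATTA in 2 (0.913%), against 4.77% and 7.17%. Both shares were lower in the members than in these sets of lower GC content, and the part of base composition in them was not tested. In single-gene promoter and distal regions of 15 or more the shares were low as well. TATAAA lay in 3.17% and 3.70% of these, and TAATTA in 1.36% and 2.22%.

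Words of 8 bases were then searched without a motif in mind. They were ranked on the 87 members of chromosomes II and III by their share above that at the midpoints of pairs without a region, and counted on the 132 members of I, IV and V. The word of rank 1, GCGAGACC (GGTCTCGC on the other strand), lay in 13 of the 87 and in 11 of the 132 (8.33%, exact 95% interval 4.23% to 14.4%). Over all autosomes, II and III included, it lay in 3.39% of single-gene promoter regions, 0.370% of distal regions, 3.11% of weaker divergent candidates and 1.13% of the midpoints. Words of rank 2 and 3 overlap it. Words of rank 4, 5 and 6 form another overlapping set. The one of rank 5, GAGACGCA, is reported from it, although GACGCAGA ranked above it. GAGACGCA lay in 9 of the 87 and in 14 of the 132 (10.6%, 5.92% to 17.2%). Its share over all autosomes was 13.3% in single-gene promoter regions and 12.2% in distal regions. It was 2.28% in weaker divergent candidates and 0.817% at the midpoints, and these differences were not tested.

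Both words were ranked on windows within 50 bp of summits, and the members that ranked them are counted here. Their place near the summit is thus partly set by that choice and is given as description. In bins of 25 bp, 13 members had GCGAGACC and 11 had GAGACGCA in the bin at the summit, and no bin beyond 100 bp had more than 2 members with either. The 24 members with GCGAGACC had a median signal value of 23.7, against 22.2 in the 195 without it, and 37.5% of them were in the IDR list, against 37.9%. They included pqn-59 with taf-4 (55.5), rpl-39 with rps-30, T27E9.2 with ant-1.1, an adenine nucleotide translocator gene (36.9), and npp-3 with top-2, genes of a nucleoporin and of topoisomerase II (35.5). The 23 members with GAGACGCA had a median of 28.5, against 21.96 without it, and 60.9% were in the IDR list, against 35.2%. In all, 44 members held at least 1 of the words and 3 held both.

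The share of copies of each word that lay at a region was set beside the share of all bases that do. The bases were not matched to the words in GC content, and the part of base composition in the ratios was not tested. Chromosomes I, IV and V did not rank the words, although the words to report were picked after values were seen. There, 11 of 77 copies of GCGAGACC in divergent sequence (14.3%) lay within 50 bp of a summit of 15 or more. Of the bases of that sequence 1.59% do, a ratio of 9.005. In single-gene promoters the count was 11 of 248 copies (4.44%, with 0.451% of bases, a ratio of 9.83), and in distal intergenic sequence 1 of 542 (0.185%, with 0.260% of bases). For GAGACGCA the counts were 14 of 89 in divergent sequence (15.7%), 42 of 576 in single-gene promoters (7.29%) and 44 of 780 in distal sequence (5.64%). For GAGAGAG they were 27 of 289 (9.34%), 80 of 2076 (3.85%) and 230 of 4497 (5.11%). The ratio for GCGAGACC was thus no higher in divergent sequence than in single-gene promoters, and for GAGACGCA it was 9.92 in divergent sequence, 16.2 in single-gene promoters and 21.7 in distal sequence. In distal sequence GCGAGACC was at the level of any base, with 1 copy at a summit, whereas GAGACGCA and GAGAGAG were above it in all 3 settings. GCGAGACC was also denser in divergent sequence, at 95.2 copies per Mb there and 42.0 in single-gene promoters and 41.6 in distal sequence. The 11 and 14 copies at summits in divergent sequence equal in number the members already counted with each word. The ratios in divergent sequence are therefore no separate support.

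**Figure D5:**
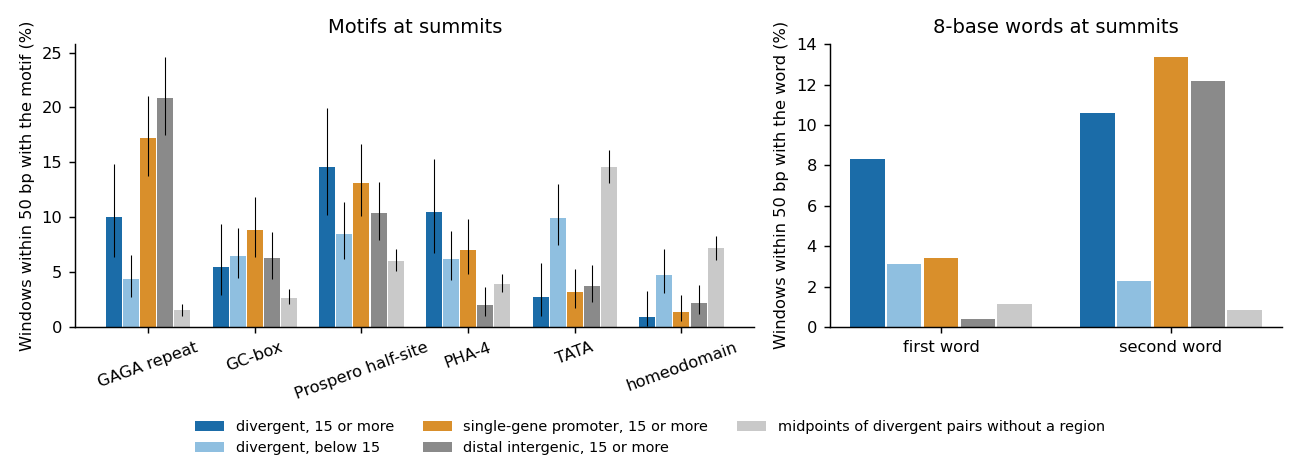
Left, the share of windows reaching 50 bp to either side that hold each motif, at the summits of divergent regions of 15 or more, weaker divergent candidates, single-gene promoter regions, distal intergenic regions and midpoints of divergent pairs without a region, with exact 95% intervals of counting. Right, the shares for GCGAGACC (first word) and GAGACGCA (second word), without intervals, with the bar of divergent regions of 15 or more counted on chromosomes I, IV and V and the others on all autosomes. GCGAGACC stands at 8.33% at divergent regions and 0.370% at distal regions, while GAGACGCA stands at 10.6% and 12.2%.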

How the data were processed

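ChIP-seq region lists of 2 replicates were used. Per the text files deposited with them, the authors called candidate regions on each replicate and on both pooled, each against a control, and thresholded them by IDR. The aligner, caller and settings are not given in the sources used here. The deposited signal value of a region is a score of unstated scale and the authors' significance column is the -log10 of a q-value, which was not used to choose regions, and their p-value column is unfilled. Each candidate list held 30000 regions, and candidates were mostly 324 bp wide.

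Summits on ce11 were placed on the gene models of Ensembl release 115 (19973 protein-coding genes on the nuclear chromosomes), with genes keyed by ID because some names have several loci. A weaker candidate is one below 15 in a divergent position. Divergent geometry means the nearest opposed starts on either side of a stretch of positions that meet the rule. It does not itself require that no gene body lie between them. In all 219 members no protein-coding gene body lay between the nearest starts. Non-coding genes were not counted as bodies. Shares carry exact Clopper-Pearson intervals, which cover counting only, since depth is unknown. No test was run: signal chose the members, there is 1 group, and regions are not replicates.

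Members, the 23 lists, the 12 motifs and the alternatives were chosen with earlier results of these data known, and the 8-base words and the regions shown for GCGAGACC after values were seen. Sequences shown are from chromosomes II to V. Named genes are those of the 20 strongest members, up to 4 of each list, both-listed pairs, and members at the threshold, the gap extremes and shared intervals. Further genes named for non-coding neighbours, motifs, words or number of genes in reach, and members of a list past 4, were chosen after their values were seen. A region just below the threshold is not reported here.

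Positions of the 5 classes, drawn from the real annotation by the same rule, were recovered (1000 of 1000). That check shows only that the rule was applied alike in both steps. Motifs planted in random sequence were recovered as well (1200 of 1200). Alternatives covered the threshold, the IDR list, the upstream window, starts and bodies counted, each replicate's own list, match distance, motif window and build. Software was Python 3.11.15 with scipy 1.17.1, pandas 2.3.3, matplotlib 3.10.9 and numpy 2.4.6.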

Additional observations from a re-analysis of the deposited data

How the results depend on the processing

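Of 123 values recomputed with 1 choice changed at a time, 56 were counted as close to the reported value and 67 as moved further. A count was close within 1.5 times, and most other values within 1 SD of the 2 replicate lists. That SD rests on 2 values and is small for several shares. For 2 shares wider shifts were also counted as close. The share in the IDR list fell as low as 32.2% (window of 500 bp), against 37.9%. The share near a non-coding gene ran from 14.9% (threshold of 10) to 21.4% (threshold of 20), against 19.6%. A signal threshold of 10 gave 390 regions at 385 gene pairs, with 21.3% in the IDR list, 55.9% matched in both replicates, a median GC content of 46.5%, GAGAGAG in 7.95%, GGGCGG in 7.18% and the half-site AAGACG or AAGGCG in 11.5%. A threshold of 20 gave 145 regions at 145 pairs, with 57.2% in the IDR list, a median gap of 587 bp, a median distance to the nearer start of 171 bp, 85.5% matched in both replicates, a GC content of 49.5%, GAGAGAG in 10.3% and the half-site in 11.7%. The IDR list alone gave 83 regions at 83 pairs, with a gap of 587 bp, a distance of 171 bp, 91.6% matched, a GC content of 51.5%, GAGAGAG in 8.43%, GGGCGG in 8.43%, the half-site in 12.05%, a non-coding gene near in 26.5% and 14 ribosomal protein genes in place of 31. These settings change how many regions are kept. An upstream window of 500 bp gave 143 regions at 143 pairs, a gap of 410 bp, a distance of 141 bp, GAGAGAG in 7.69% and the half-site in 17.5%. A window of 2000 bp gave a gap of 773 bp, a distance of 184 bp, a GC content of 49.5%, GAGAGAG in 13.5%, GGGCGG in 6.73% and the half-site in 12.8%. The window limits the gap by construction. Leaving out bodies of all genes, non-coding ones included, gave a gap of 530 bp, GAGAGAG in 10.6% and a non-coding gene near in 11.6%, and leaving out members near a non-coding gene gave a gap of 521 bp, a distance of 145 bp and GAGAGAG in 11.4%. Counting outermost starts only changed none of the 12 results. The rule makes this nearly certain, since a summit outside gene bodies lies nearer to the outermost start of a gene than to its inner ones. Matching within 50 bp gave 59.4% in both replicates and within 200 bp 84.9%. Motif windows of 25 bp on either side of the summit gave a GC content of 50.98%, GAGAGAG in 3.65%, GGGCGG in 2.74% and the half-site in 6.39%, and windows of 100 bp on either side gave 43.3%, 14.2%, 13.7% and 19.6% in that order. A non-coding gene within 500 bp was found for 26.9%. The strongest candidates of a single replicate, as many as the pooled list has, gave 142 to 194 regions at 141 to 192 pairs, with a distance of 143.5 to 160.5 bp, a GC content of 48.5% to 49.0%, GAGAGAG in 8.76% to 9.15%, GGGCGG in 7.04% to 8.25% and the half-site in 11.97% to 13.4%. The list without replicate 2, that is the list of replicate 1, gave the 142 regions, against 219 from the pooled list. Causes of these shifts were not tested. The ce10 list had 2021 autosomal candidates of 15 or more, against 2117 on ce11. No paired analysis was possible because there is 1 group. Depth is unknown, so it cannot be said which absences are limits of depth.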
